A study of Mus musculus with 8 samples.

Results

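The genes described here are 37 genes of germ cell development, meiosis and the piRNA pathway, followed in mouse embryonic stem cells whose TCF/LEF transcription factors had been deleted or returned. They were taken as a named list, chosen with earlier results of these data known, and located by matching each symbol to its Ensembl identifier. They are 37 of the 47729 genes counted, and 34 of them passed the filter on low counts that left 16515 genes for testing. RNA was sequenced from 8 libraries, 2 from each of 4 groups of E14TG2a cells, an embryonic stem cell line of mouse strain 129/Ola. In QT7 cells a single copy of TCF7 was present on a background otherwise deleted for TCF7, TCF7L1, TCF7L2 and LEF1, as titled. In QT7L1 cells the single copy was of TCF7L1, as titled. QKO cells had all 4 genes deleted (TCF7 -/-, TCF7L1 -/-, TCF7L2 -/-, LEF1 -/-), and WT cells carried none of these deletions. All cells had been kept for 48 h in medium with 15% serum and LIF, the cytokine that holds such cells in the pluripotent state. The labels disagree on which gene each line retained: the genotype tag reads TCF7L1 (+/-) for QT7 and TCF7 (+/-) for QT7L1, the reverse of the titles. Both names follow the titles here. Replicates 1 and 2 of QT7, QT7L1 and QKO were clones A and B, and no clone is given for WT. The p-values therefore measure the spread between clones or, in WT, between samples whose origin as separate cultures is not stated.

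Germ cells carry out meiosis, in which homologous chromosomes are aligned by meiotic cohesins, joined along their length by the synaptonemal complex and recombined at programmed DNA breaks. They also make piRNAs, small RNAs bound by PIWI proteins that silence transposons, in cytoplasmic granules organised by Tudor domain proteins. In mouse embryonic stem cells many of these genes are held at low levels by DNA methylation and by the Polycomb complex PRC1.6, which is brought to E-box and E2F sites by MGA with MAX and by E2F6. TCF/LEF factors are the DNA-binding partners of beta-catenin in Wnt signalling.

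The libraries held 31573536 to 43362627 counts, and levels are given as CPM, counts scaled to library size with TMM factors. Tcf7 stood at 16.6 and 20.9 CPM in QT7, 10.1 and 12.7 in QT7L1, 7.97 and 19.6 in QKO, and 59.6 and 61.9 in WT. Tcf7l1 stood at 27.4 and 22.4 CPM in QT7, 36.95 and 27.5 in QT7L1, 38.3 and 39.1 in QKO, and 73.6 and 68.8 in WT. Counts over the whole gene include transcripts with deleted parts, so these levels do not settle which factor QT7 and QT7L1 retained. Pluripotency markers were abundant in every group, with 8 of 8 detected and sums of 4514 to 6010 CPM. Of 10 markers of postnatal germ cells, Prm1, Tnp1 and Acrv1 had 0 counts in all 8 libraries, while Zp3, an egg coat protein gene, reached 10.3 and 11.4 CPM in QKO. Only 2 of the 10 passed the filter on low counts, Zp3 and 1 that did not rise in QKO. Because the RNA came from whole cultures, fewer cells expressing a gene cannot be told apart from less of its RNA per cell.

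Most of these genes were readable at a low level in WT. Per kilobase of exon, the highest mean levels in WT were those of Syce2 at 34.6 CPM per kb, Tex19.1 at 14.6 and Sycp3 at 12.5. Syce2 and Syce1 encode central element proteins of the synaptonemal complex, Sycp3 encodes its axial element, and Tex19.1 is a germ cell and stem cell gene known for transposon control. At the other end, Spo11, the enzyme that makes meiotic DNA breaks, had 2 counts in 1 WT library, 1 count in 1 QKO library and 0 in the other 6. Tdrd6, a scaffold of the chromatoid body of spermatids, had 0 to 11 counts per library. Both stayed below the filter, as did Asz1, described with the QT7 clones.

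**Figure D1:**
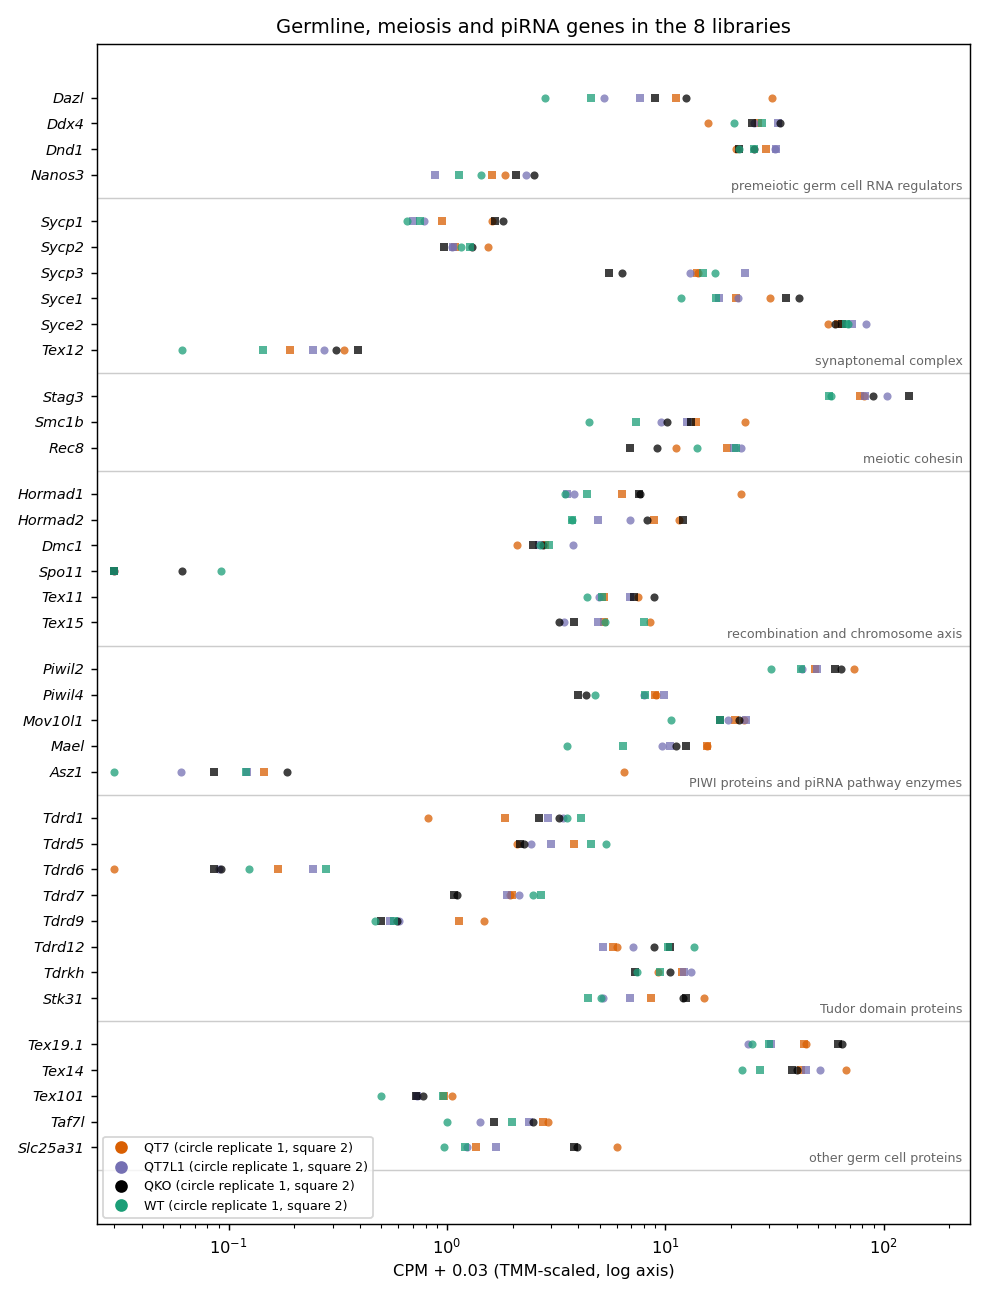
Level of each of the 37 genes in the 8 libraries, as CPM plus an offset of 0.03 on a log axis, grouped by role, with circles for replicate 1 and squares for replicate 2. Sycp3, Rec8, Piwil4 and Tdrd7 have both QKO libraries below the 6 others, and Tex19.1, Syce1 and Sycp1 have both above. These are 4 and 3 of the 34 tested genes, against 21.5% and 19.6% of all genes tested. Asz1 has 1 QT7 library far from the rest.

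The loss of all 4 factors was examined by setting QKO against WT. Of the 34 tested genes, 10 rose in QKO, 4 fell and 20 did not pass. The 10 that rose were Tex19.1, Syce1, Hormad2, Stag3, Stk31, Mael, Sycp1, Piwil2, Tex14 and Smc1b, and the 4 that fell were Sycp3, Tdrd7, Rec8 and Tdrd5. Calls are edgeR quasi-likelihood tests at a Benjamini-Hochberg adjusted p under 0.05, from a fit over all 16515 genes. The 14 calls made 41.2% of the tested members, against 26.4% of all genes. The 10 higher calls made 29.4%, against 11.7% of all genes, and the 4 lower calls 11.8%, against 14.7% of all genes. The median log2 fold change of the 34 was 0.46, and that of all genes was -0.01. Both QKO libraries lay below the 6 others for 4 of the 34 and above them for 3. Over all genes tested these shares were 21.5% and 19.6%. The count of 14 fell to 7 without WT replicate 2, to 8 without QKO replicate 1 and to 6 without QKO replicate 2, where 7.55%, 12.3% and 7.45% of all genes were called. In the authors' deposited table for this pair of groups, 16 members had an adjusted p under 0.05, and 13 of the 14 called here were among them in the same direction, all but Sycp1.

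Summed markers of 2-cell-like cells, a minor cell state of such cultures, were higher in every QT7 and QKO library than in every QT7L1 and WT library. Their sum over 10 genes was 24.98 and 37.4 CPM in QT7, 3.18 and 2.74 in QT7L1, 32.9 and 15.2 in QKO, and 2.44 and 9.98 in WT, and none was at 0 in every library. Of the 7 tested, Usp17le and Zfp352 rose in QKO and 5 did not pass. That is 28.6% called, against 26.4% of all genes, and both were higher, against 11.7% of all genes. All 7 had log2 fold changes over WT above 0 in QT7 and QKO and below 0 in QT7L1. In QT7L1 against QKO 5 of the 7 fell, 71.4% against 13.9% of all genes. In QT7 against QKO none of the 7 passed, against 26.9% of all genes. The 10 members that rose in QKO did not pass in QT7L1 against WT, where only 0.745% of all genes were called and 0.297% were higher. With so few calls, not passing there is no particular trait of these members. Their log2 fold changes there were -0.01 for Tex19.1, 0.07 for Sycp1, 0.34 for Piwil2, 0.36 for Stk31, 0.44 for Syce1 and 0.67 for Hormad2. Stag3 was at 0.71, Smc1b at 0.90, Tex14 at 0.94 and Mael at 1.02. The part of these markers in the results on the germline genes was not tested.

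**Figure D2:**
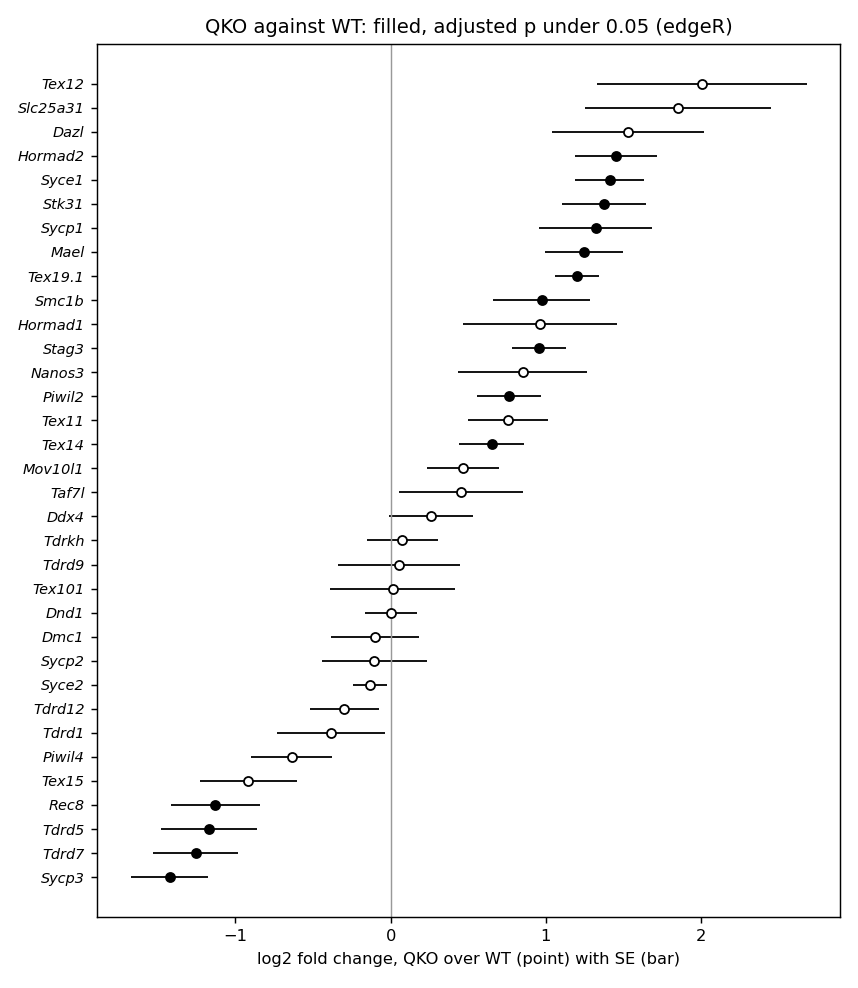
Log2 fold change of QKO over WT for the 34 tested genes, as points with bars of 1 SE from edgeR, filled where the adjusted p was under 0.05. The 14 filled points are 10 genes higher and 4 lower in QKO, and Tex12, the point farthest to the right, rests on few counts.

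The start regions printed here are those of the 4 genes that rose with the smallest adjusted p in QKO against WT, and then of the 2 that fell with the smallest adjusted p. Stk31 and Mael, the next genes that rose, had smaller adjusted p than Tdrd7 and are not printed. Both held 1 E-box in their windows, and Mael also held 2 E2F-type words. Each region is the 300 bases from 250 before to 50 after the RefSeq transcription start on build GRCm38.p6, read 5′ to 3′ on the strand of the gene. Capitals mark the E-box CACGTG and the TCF/LEF-type core CTTTGA, searched on both strands together with the E2F-type word GGCGGGA, and no window shown holds more than 1 of these 3 motifs. The windows lie at chr11:121145893-121146192 on the plus strand for Tex19.1, chr7:140787805-140788104 on the minus strand for Syce1, chr11:4441033-4441332 on the minus strand for Hormad2, chr5:138280259-138280558 on the plus strand for Stag3, chr10:88459337-88459636 on the plus strand for Sycp3 and chr4:45965085-45965384 on the plus strand for Tdrd7.
Tex19.1: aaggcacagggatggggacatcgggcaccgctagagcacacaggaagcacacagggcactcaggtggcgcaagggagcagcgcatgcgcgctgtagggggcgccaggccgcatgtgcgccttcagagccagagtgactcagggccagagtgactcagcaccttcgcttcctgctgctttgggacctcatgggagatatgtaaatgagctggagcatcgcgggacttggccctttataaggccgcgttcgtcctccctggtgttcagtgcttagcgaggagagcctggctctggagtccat
Syce1: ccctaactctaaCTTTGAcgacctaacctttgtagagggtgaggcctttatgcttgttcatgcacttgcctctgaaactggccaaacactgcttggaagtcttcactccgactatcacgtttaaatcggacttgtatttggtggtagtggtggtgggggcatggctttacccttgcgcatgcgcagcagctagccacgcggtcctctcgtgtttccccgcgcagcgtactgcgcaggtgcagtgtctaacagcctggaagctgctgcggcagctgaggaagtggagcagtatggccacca
Hormad2: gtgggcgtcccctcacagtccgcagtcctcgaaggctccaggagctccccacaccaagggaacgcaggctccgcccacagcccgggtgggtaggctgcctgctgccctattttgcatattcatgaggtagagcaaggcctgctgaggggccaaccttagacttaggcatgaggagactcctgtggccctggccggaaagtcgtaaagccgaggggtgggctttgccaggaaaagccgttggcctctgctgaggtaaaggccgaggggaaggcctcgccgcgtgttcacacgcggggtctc
Stag3: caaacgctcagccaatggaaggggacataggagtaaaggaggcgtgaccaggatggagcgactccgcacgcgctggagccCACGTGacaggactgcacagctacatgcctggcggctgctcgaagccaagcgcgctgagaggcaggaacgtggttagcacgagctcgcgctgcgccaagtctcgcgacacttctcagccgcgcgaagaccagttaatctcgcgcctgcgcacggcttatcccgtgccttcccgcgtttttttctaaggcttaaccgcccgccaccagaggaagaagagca
Sycp3: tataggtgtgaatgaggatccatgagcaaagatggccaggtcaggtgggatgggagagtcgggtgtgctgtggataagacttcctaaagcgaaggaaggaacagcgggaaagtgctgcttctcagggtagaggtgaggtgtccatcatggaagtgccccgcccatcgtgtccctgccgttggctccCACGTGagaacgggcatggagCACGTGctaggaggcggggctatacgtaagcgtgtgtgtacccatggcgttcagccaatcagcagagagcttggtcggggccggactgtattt
Tdrd7: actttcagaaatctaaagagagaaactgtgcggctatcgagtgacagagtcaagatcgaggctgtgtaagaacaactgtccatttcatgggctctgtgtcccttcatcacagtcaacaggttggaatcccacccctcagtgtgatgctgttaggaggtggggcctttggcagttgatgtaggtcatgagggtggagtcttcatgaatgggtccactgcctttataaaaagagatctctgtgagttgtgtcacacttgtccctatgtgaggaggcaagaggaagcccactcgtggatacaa

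In these windows Sycp3 held E-boxes that begin 64 and 43 bases before the start, and Stag3 held 1 that begins 170 bases before it. The RefSeq start of Stag3 lies 269 bases from the GENCODE start of the gene, and that of the other 5 genes at most 23. Syce1 held the core CTTTGA 238 bases before its start. Tex19.1, Hormad2 and Tdrd7 held none of the 3 words in this window. The 6 windows held 4 to 30 CpG dinucleotides, with Tdrd7 the lowest and Stag3 the highest.

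RefSeq start regions were matched for 31 of the 37 genes, and Dnd1, Tex11, Tex15, Spo11, Piwil2 and Tdrd6 had none matched. The RefSeq start lay 8665 bases from the GENCODE start for Nanos3, 4625 for Tex101, 316 for Tdrd5 and 269 for Stag3, and at most 165 for the others, so the windows of Nanos3 and Tex101 are far from the GENCODE start. The E-box was present in 13 of the 31 (41.9%), against 7.15% of all 32817 start regions of the same length and 7.83% of those of 21229 protein-coding genes. The 13 genes with an E-box were Sycp1, Sycp3, Tex12, Stag3, Hormad1, Mael, Stk31, Ddx4, Slc25a31, Mov10l1, Tdrd1, Tdrd9 and Taf7l. The E2F-type word was in 6 (19.4%), against 11.3% of all start regions and 14.9% of those of protein-coding genes. The TCF/LEF-type core was in 6 (19.4%), against 16.0% and 14.4%. Both the E-box and the E2F-type word were in 5 (16.1%), against 1.18% and 1.6%. The median number of CpG was 19, against 7 over all start regions and 13 over those of protein-coding genes. The 31 matched genes include genes that rose, fell and did not pass, and a match of letters is a description and not a bound site.

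The role groups that follow are small, and their shares called are given as description only. Among genes of premeiotic germ cells, none of 4 passed in QKO against WT, where 26.4% of all genes were called. Dazl, an RNA-binding protein required for germ cell development, stood at 30.9 and 11.1 CPM in QT7, 5.21 and 7.64 in QT7L1, 12.4 and 8.98 in QKO, and 2.79 and 4.56 in WT. All QT7, QT7L1 and QKO libraries were above both WT libraries, and the QT7 libraries differed by 2.77 times from each other. The log2 fold change of QKO over WT was 1.53 ± 0.49 (SE), which did not pass (adjusted p = 0.0552, edgeR). Ddx4, the vasa RNA helicase, ranged from 15.7 to 33.4 CPM over the 8 libraries. Dnd1, a partner of NANOS proteins in RNA binding, ranged from 21.1 to 32.2 CPM, and Nanos3, which keeps primordial germ cells alive, from 0.853 to 2.48 CPM. For Ddx4, Dnd1 and Nanos3 no comparison among the 6 pairs of groups passed.

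The 6 synaptonemal complex genes divided, with 2 that rose in QKO, 1 that fell and 3 that did not pass. These calls made 50% of the group, against 26.4% of all genes. Sycp3, whose protein forms the axial elements, stood at 14.0 and 13.9 CPM in QT7, 13.0 and 23.1 in QT7L1, 6.33 and 5.49 in QKO, and 16.8 and 14.9 in WT. Both QKO libraries were below all 6 others, with no overlap. Its log2 fold change was -1.42 ± 0.25 in QKO against WT (adjusted p = 0.00393, edgeR), a level of 0.373 times that of WT. Syce1, a central element protein, stood at 30.0 and 21.2 CPM in QT7, 21.5 and 17.6 in QT7L1, 40.9 and 35.8 in QKO, and 11.7 and 17.0 in WT. Both QKO libraries were above all 6 others. Syce1 was 2.66 times as high in QKO as in WT (log2 1.41 ± 0.22, adjusted p = 0.00275, edgeR). These 2 calls held under each of 14 alternative analyses, 8 of which left out 1 library.

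Sycp1, the transverse filament that spans the complex, stood at 1.58 and 0.920 CPM in QT7, 0.757 and 0.670 in QT7L1, 1.77 and 1.64 in QKO, and 0.626 and 0.726 in WT. The QKO libraries were the highest, close to QT7 replicate 1. The log2 fold change of QKO over WT was 1.32 ± 0.36 (adjusted p = 0.0244, edgeR), and the call ended without any 1 of the WT or QKO libraries, with an adjusted p of up to 0.110. Tex12, another central element protein, had 9 and 13 counts in QKO against 1 and 5 in WT, and did not pass (adjusted p = 0.0511, edgeR). Sycp2, the partner of SYCP3 in the axial element, ranged from 0.943 to 1.51 CPM and passed in no comparison. Syce2 was at 59.8 and 64.3 CPM in QKO and at 68.9 and 67.3 in WT, a difference that did not pass (log2 -0.13 ± 0.11, adjusted p = 0.3997, edgeR).

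Sycp3 shares 660 of its 1264 exon bases with Chpt1, a gene on the opposite strand that encodes a choline phosphotransferase. Chpt1 stood at 9.34 and 8.63 CPM in QT7, 9.81 and 10.02 in QT7L1, 5.87 and 6.07 in QKO, and 5.92 and 7.50 in WT. The library kit keeps strand, but the strand setting of the counting is not given in the sources used here, and the part of this overlap in the Sycp3 values was not tested. Dnd1 overlaps Wdr55 by 140 bases and Tdrkh overlaps Oaz3 by 2255 bases, also on opposite strands, and neither Dnd1 nor Tdrkh passed in any comparison.

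The 3 meiotic cohesin subunits all passed in QKO against WT, 2 higher and 1 lower, where 26.4% of all genes were called. A group of 3 genes that moved in both directions is too small for a result about cohesin as a set. Stag3, the stromalin subunit, stood at 81.7 and 78.1 CPM in QT7, 103 and 82.3 in QT7L1, 89.0 and 131 in QKO, and 57.3 and 56.0 in WT. Every library of the other groups was above both WT libraries. The log2 fold change of QKO over WT was 0.96 ± 0.17 (adjusted p = 0.00515, edgeR), and the call ended without WT replicate 2 (adjusted p = 0.0517). Rec8, the kleisin subunit that holds sister chromatids together until the meiotic divisions, stood at 11.2 and 19.23 CPM in QT7, 22.1 and 20.6 in QT7L1, 9.15 and 6.88 in QKO, and 13.9 and 21.1 in WT. Both QKO libraries were below all 6 others. Rec8 had a log2 fold change of -1.13 ± 0.29 in QKO against WT (adjusted p = 0.0198, edgeR), and the call ended without WT replicate 2 or QKO replicate 2, with an adjusted p of up to 0.151 and a log2 fold change of -1.40 to -0.80 over the alternatives.

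Smc1b, the meiotic SMC subunit, stood at 23.3 and 13.8 CPM in QT7, 9.51 and 12.6 in QT7L1, 10.1 and 13.1 in QKO, and 4.45 and 7.35 in WT. The WT libraries were the lowest of the 8. Smc1b was 1.96 times as high in QKO as in WT, and that call ended on leaving out any of 6 libraries, those of QT7L1, QKO and WT.

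Of the 6 genes of recombination and the chromosome axis, 1 rose in QKO, 4 did not pass and Spo11 was not tested. That is 20% of those tested, against 26.4% of all genes called. Hormad2, which marks unsynapsed chromosome axes, stood at 11.5 and 8.83 CPM in QT7, 6.87 and 4.87 in QT7L1, 8.19 and 12 in QKO, and 3.69 and 3.70 in WT. All 6 libraries of the other groups were above WT. Hormad2 was 2.73 times as high in QKO as in WT (log2 1.45 ± 0.26, adjusted p = 0.00439, edgeR), and this call held under all 14 alternatives. Hormad1, its paralog, was at 7.66 and 7.57 CPM in QKO and at 3.44 and 4.35 in WT, without passing (log2 0.96 ± 0.50, adjusted p = 0.191, edgeR). Tex15, needed for repair of meiotic breaks, stood at 8.52 and 5.22 CPM in QT7, 3.39 and 4.87 in QT7L1, 3.23 and 3.80 in QKO, and 5.29 and 7.96 in WT. Its QKO libraries were below both WT libraries, but the difference did not pass (log2 -0.92 ± 0.31, adjusted p = 0.0532, edgeR). Tex11, which promotes crossovers, ranged from 4.35 to 8.84 CPM and Dmc1, the meiotic recombinase, from 2.07 to 3.75 CPM, and neither passed in any comparison.

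Among PIWI proteins and piRNA pathway enzymes, 2 of 4 tested genes rose in QKO, 50% against 11.7% of all genes. Piwil2, the PIWI protein MILI, stood at 73.2 and 48.5 CPM in QT7, 42.5 and 49.8 in QT7L1, 63.8 and 59.8 in QKO, and 30.6 and 42.0 in WT. Both QKO libraries were above both WT libraries, and QT7 replicate 1 was the highest. The log2 fold change of QKO over WT was 0.76 ± 0.21 (adjusted p = 0.0262, edgeR), and the call ended without WT replicate 1, QKO replicate 1 or QKO replicate 2, with an adjusted p of up to 0.129. Mael, a granule protein needed for transposon silencing, stood at 15.5 and 15.5 CPM in QT7, 9.66 and 10.5 in QT7L1, 11.2 and 12.4 in QKO, and 3.51 and 6.35 in WT. The WT libraries were the lowest 2 and the QT7 libraries the highest 2. Its log2 fold change was 1.25 ± 0.25 in QKO against WT (adjusted p = 0.00651, edgeR), and 0.89 to 1.75 over the alternatives, with the call lost without QKO replicate 2 (adjusted p = 0.0533).

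Piwil4, the nuclear PIWI protein MIWI2, stood at 9.09 and 8.90 CPM in QT7, 7.93 and 9.84 in QT7L1, 4.31 and 3.96 in QKO, and 4.76 and 8.07 in WT. Both QKO libraries were below all 6 others, with WT replicate 1 close to them. The difference of QKO from WT did not pass (log2 -0.64 ± 0.26, adjusted p = 0.0945, edgeR). Mov10l1, the RNA helicase that feeds piRNA precursors into processing, ranged from 10.6 to 23.5 CPM and passed in no comparison.

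The Tudor domain genes moved both ways in QKO, with Stk31 higher, Tdrd7 and Tdrd5 lower and 4 of 7 tested not passing. The share called was 42.9%, against 26.4% of all genes. Stk31, a Tudor domain protein with a kinase domain, stood at 15.0 and 8.58 CPM in QT7, 5.18 and 6.88 in QT7L1, 12.04 and 12.45 in QKO, and 5.04 and 4.40 in WT. Both QKO libraries were above those of QT7L1 and WT and lay between the QT7 libraries. Stk31 had a log2 fold change of 1.38 ± 0.27 in QKO against WT (adjusted p = 0.00609, edgeR), and the call ended without WT replicate 2 (adjusted p = 0.0630). Tdrd7, a granule protein also known for its role in the lens, stood at 1.91 and 1.96 CPM in QT7, 2.12 and 1.86 in QT7L1, 1.09 and 1.05 in QKO, and 2.44 and 2.67 in WT. The QKO libraries were the lowest and the WT libraries the highest, with the other 4 between them. Tdrd7 was 0.418 times as high in QKO as in WT (log2 -1.26 ± 0.28, adjusted p = 0.00957, edgeR), a call that ended without WT replicate 2, QKO replicate 1 or QKO replicate 2, with an adjusted p of up to 0.0742.

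Tdrd5, needed for granule assembly, stood at 2.07 and 3.77 CPM in QT7, 2.39 and 2.95 in QT7L1, 2.23 and 2.13 in QKO, and 5.32 and 4.53 in WT. Every library of the other groups was below both WT libraries. Tdrd5 had a log2 fold change of -1.17 ± 0.31 in QKO against WT (adjusted p = 0.0214, edgeR), and the call ended without any 1 of the WT or QKO libraries, with an adjusted p of up to 0.121. Tdrkh, which anchors piRNA trimming at mitochondria, ranged from 7.26 to 13.1 CPM and passed in no comparison.

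Of the other germ cell genes, 2 of 5 rose in QKO, 40% against 11.7% of all genes. Tex19.1 stood at 44.1 and 43.2 CPM in QT7, 23.8 and 30.4 in QT7L1, 64.2 and 61.7 in QKO, and 24.9 and 29.8 in WT. The QKO libraries were the highest 2, the QT7 libraries the next, and the QT7L1 and WT libraries overlapped. Tex19.1 was 2.30 times as high in QKO as in WT (log2 1.20 ± 0.14, adjusted p = 0.000889, edgeR), the smallest adjusted p among the 34, and the call held under all 14 alternatives. Its paralog Tex19.2 was at 0.814 to 1.21 CPM in the 8 libraries. Tex14, a component of the bridges between germ cells, stood at 67.5 and 41.7 CPM in QT7, 51.3 and 44.0 in QT7L1, 40.2 and 37.9 in QKO, and 22.4 and 27.2 in WT. Every library of the other groups was above both WT libraries. Tex14 was 1.57 times as high in QKO as in WT, and leaving out any of the same 6 libraries as for Smc1b ended the call.

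Slc25a31, the ADP/ATP carrier of sperm, was at 3.91 and 3.80 CPM in QKO and at 0.939 and 1.18 in WT, without passing (log2 1.85 ± 0.60, adjusted p = 0.0505, edgeR). Taf7l, a germ cell relative of a general transcription factor subunit, ranged from 0.970 to 2.88 CPM. Tex101, a surface protein of germ cells, ranged from 0.469 to 1.02 CPM. None of these 3 genes passed in any comparison.

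A single returned factor was examined by setting QT7 and QT7L1 against QKO, and these comparisons share the QKO libraries with each other and with QKO against WT. In QT7 against QKO, 6 of the 34 genes rose, 3 fell and 25 did not pass. The 9 calls made 26.5% of the tested members, against 26.9% of all genes, with 17.6% higher against 14.8% and 8.82% lower against 12.1%. A share this near the background is no result about these genes as a set. In QT7L1 against QKO, 5 rose, 5 fell and 24 did not pass. Those 10 calls made 29.4%, against 29.7% of all genes, with 14.7% higher against 15.9% and 14.7% lower against 13.9%. The count for QT7 fell to 2 without QKO replicate 1, to 0 without QKO replicate 2 and to 5 without either QT7L1 library, where 13.3%, 8.39% and 21.4% to 21.5% of all genes were called. The count for QT7L1 fell to 4 without QKO replicate 1, to 3 without QKO replicate 2, to 5 without QT7L1 replicate 1 and to 3 without QT7L1 replicate 2, where 16.3%, 9.98%, 13.3% and 10.9% of all genes were called.

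Of the genes that fell in QKO, Sycp3, Rec8 and Tdrd7 rose in both lines relative to QKO, as did Piwil4. Sycp3 was 2.36 times as high in QT7 as in QKO (log2 1.24 ± 0.25, adjusted p = 0.00633, edgeR) and 3.06 times as high in QT7L1 as in QKO (log2 1.61 ± 0.25, adjusted p = 0.00198, edgeR). Rec8 had a log2 fold change of 0.93 ± 0.28 in QT7 and of 1.42 ± 0.29 in QT7L1 over QKO (adjusted p = 0.0390 and 0.00710, edgeR). Piwil4 had log2 fold changes of 1.12 ± 0.26 in QT7 and 1.10 ± 0.26 in QT7L1 over QKO (adjusted p = 0.0116 in each, edgeR). Tdrd7 had log2 fold changes of 0.85 ± 0.28 in QT7 and 0.89 ± 0.28 in QT7L1 over QKO (adjusted p = 0.0435 and 0.0355, edgeR). Tdrd5 did not pass in either comparison (log2 0.42 ± 0.31 in QT7 and 0.29 ± 0.32 in QT7L1 over QKO, adjusted p = 0.348 and 0.516, edgeR). Without QKO replicate 2 every call in this paragraph ended except that of Sycp3 in QT7L1, with adjusted p of up to 0.227 in QT7 (Rec8) and up to 0.1595 in QT7L1 (Tdrd7). Without QKO replicate 1 the Piwil4 and Tdrd7 calls ended in both lines, as did that of Rec8 in QT7, with adjusted p of up to 0.145 in QT7 and up to 0.1215 in QT7L1, both of Tdrd7. The Tdrd7 call ended in QT7 on leaving out any of the 8 libraries (adjusted p up to 0.187) and in QT7L1 on leaving out any library of QT7L1, QKO or WT (up to 0.160). Rec8 in QT7 also lost its call without QT7 replicate 2 or either QT7L1 library, and Piwil4 in QT7L1 without QT7L1 replicate 2 (adjusted p up to 0.185 for Rec8 and 0.0887 for Piwil4).

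Tex19.1, which was high in QKO, fell in both lines relative to QKO. Its log2 fold change was -0.53 ± 0.14 in QT7 (adjusted p = 0.0199, edgeR) and -1.21 ± 0.14 in QT7L1 (adjusted p = 0.000868, edgeR). The call in QT7L1 held under all 14 alternatives, and that in QT7 ended without QKO replicate 1 or QKO replicate 2, with an adjusted p of up to 0.0961. Syce1, Stk31, Sycp1 and Hormad2 passed in QT7L1, with log2 fold changes over QKO of -0.97 ± 0.22, -1.02 ± 0.27, -1.25 ± 0.37 and -0.78 ± 0.26 (adjusted p = 0.0101, 0.0178, 0.0278 and 0.0430, edgeR). In QT7 the same 4 genes had log2 fold changes over QKO of -0.58, -0.05, -0.45 and 0.01, and none passed. The difference between the lines was tested directly for each, as given below for QT7 against QT7L1. Without QT7L1 replicate 1 the calls of Sycp1, Hormad2 and Stk31 in QT7L1 ended, and without QT7L1 replicate 2 all 4 ended, with adjusted p up to 0.1345 (Stk31) and 0.2685 (Hormad2). Without QKO replicate 1 those of Syce1, Stk31 and Sycp1 ended, without QKO replicate 2 those of Sycp1, Hormad2 and Stk31, and without either WT library that of Hormad2, with adjusted p up to 0.108 (Sycp1), 0.328 (Hormad2) and 0.0594.

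Several genes differed between a line with a factor returned and QKO without having passed in QKO against WT. Tdrd9, a helicase that works with MIWI2, stood at 1.46 and 1.10 CPM in QT7, 0.575 and 0.518 in QT7L1, 0.558 and 0.471 in QKO, and 0.438 and 0.544 in WT. Both QT7 libraries were above all 6 others. The log2 fold change was 1.31 ± 0.37 in QT7 over QKO (adjusted p = 0.0248, edgeR), a call that was lost without either QKO library or without QT7 replicate 1, with an adjusted p of up to 0.157. Tdrd1, a partner of MILI, stood at 0.791 and 1.82 CPM in QT7, 3.36 and 2.86 in QT7L1, 3.23 and 2.61 in QKO, and 3.51 and 4.10 in WT. Both QT7 libraries were below all 6 others. Tdrd1 had a log2 fold change of -1.15 ± 0.36 in QT7 over QKO (adjusted p = 0.0401, edgeR), and -1.87 to -0.67 over the alternatives, the weaker end without QT7 replicate 1.

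Tdrd12, a helicase needed for secondary piRNAs, stood at 5.997 and 5.70 CPM in QT7, 7.12 and 5.15 in QT7L1, 8.87 and 10.4 in QKO, and 13.6 and 10.2 in WT. All 4 libraries of QT7 and QT7L1 were below all 4 of QKO and WT. The log2 fold change over QKO was -0.72 ± 0.23 in QT7 (adjusted p = 0.0378, edgeR) and -0.66 ± 0.23 in QT7L1, which did not pass (adjusted p = 0.0513, edgeR). Tex15 had a log2 fold change of 0.97 ± 0.31 in QT7 over QKO (adjusted p = 0.0437, edgeR). Syce2 stood at 55.6 and 61.9 CPM in QT7, 83.2 and 72.0 in QT7L1, 59.8 and 64.3 in QKO, and 68.9 and 67.3 in WT. Its log2 fold change of 0.32 ± 0.11 in QT7L1 over QKO had an adjusted p of 0.0499 (edgeR) and lost its call under 10 of 14 alternatives. The calls of Tdrd1, Tdrd12 and Tex15 in QT7 were also lost without either QKO library or without QT7 replicate 1, with adjusted p up to 0.213 over the alternatives. Leaving out either QT7L1 library ended those of Tdrd1 and Tex15, leaving out either WT library that of Tdrd1, and leaving out QT7 replicate 2 that of Tdrd12, with adjusted p up to 0.0678, 0.0566 and 0.0856.

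**Figure D3:**
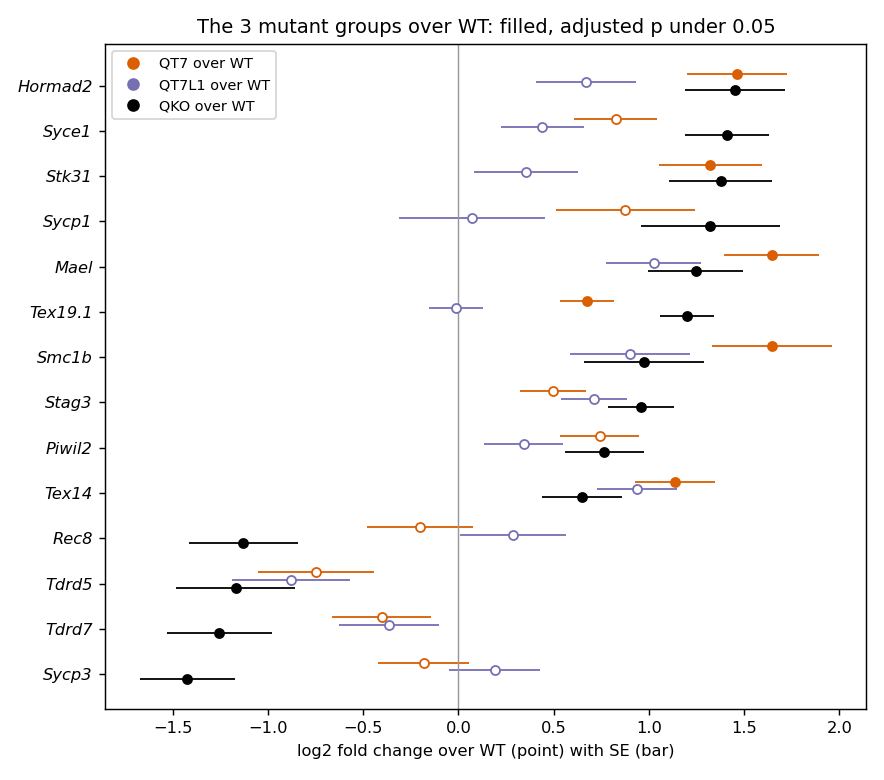
Log2 fold change over WT, as points with bars of 1 SE from edgeR, for QT7, QT7L1 and QKO in the 14 genes called in QKO against WT, filled where the adjusted p was under 0.05. Sycp3 is at -0.18 in QT7, 0.19 in QT7L1 and -1.42 in QKO, and Mael is at 1.64, 1.02 and 1.25, and the 3 contrasts share the WT libraries.

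Set against WT, QT7 differed in 9 of the 34 genes, with 7 higher, 2 lower and 25 not passing. These calls made 26.5% of the tested members, against 4.62% of all genes, with 20.6% higher against 2.37% and 5.88% lower against 2.25%. The 7 that rose were Mael, Hormad2, Tex14, Smc1b, Stk31, Tex19.1 and Dazl, and the 2 that fell were Tdrd12 and Tdrd1. Without WT replicate 1 the count was 0, without WT replicate 2 it was 3, without QT7 replicate 1 it was 4, without QKO replicate 1 it was 5, without QKO replicate 2 it was 4, and without QT7 replicate 2 it was 16. The share of all genes called in these 6 fits was 0.301%, 2%, 2.31%, 2.63%, 2.62% and 11.9%. WT replicate 1 was the lowest of the 8 libraries for 16 of the 34 members and for 10.3% of all genes tested. QT7 replicate 1 was the highest for 13 of the 34 and for 18.6% of all genes tested. Markers of 2-cell-like cells were also higher in QT7 than in WT, as given above. Of 7 tested, Usp17le and Zscan4f passed, 28.6% against 4.62% of all genes.

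Mael was 3.12 times as high in QT7 as in WT (log2 1.64 ± 0.25, adjusted p = 0.00904, edgeR). Smc1b was 3.13 times as high (log2 1.65 ± 0.32, adjusted p = 0.0258, edgeR), and Hormad2 2.75 times as high (log2 1.46 ± 0.26, adjusted p = 0.0167, edgeR). Dazl was 5.67 times as high in QT7 as in WT (log2 2.50 ± 0.50, adjusted p = 0.0380, edgeR), and its log2 fold change was 1.59 without QT7 replicate 1 and 3.06 without QT7 replicate 2. Tex14, Stk31 and Tex19.1 had log2 fold changes of 1.14 ± 0.21, 1.32 ± 0.27 and 0.67 ± 0.14 in QT7 over WT (adjusted p = 0.0229, 0.0276 and 0.0306, edgeR). Tdrd12 and Tdrd1 had log2 fold changes of -1.02 ± 0.23 and -1.54 ± 0.36 (adjusted p = 0.0354 and 0.0430, edgeR). Without WT replicate 1 the adjusted p of the 9 ran from 0.0535 to 0.272, and without QT7 replicate 1 the calls of Smc1b, Tdrd1, Tdrd12, Stk31 and Tex19.1 ended, with adjusted p from 0.0619 to 0.118. Without WT replicate 2 all but those of Mael and Smc1b ended, with adjusted p up to 0.149. Without 1 of the QKO or QT7L1 libraries the calls of Dazl, Tdrd1 and Tdrd12 ended each time, joined by Tex19.1 without either QKO library and by Stk31 without QKO replicate 2, with adjusted p up to 0.0832.

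In QT7L1 against WT, 0 of the 34 genes passed by edgeR, against 0.745% of all genes, 0.297% higher and 0.448% lower. DESeq2 called 5 of the 34, with 4% of all genes called. The smallest adjusted p values were those of Tex14 (log2 0.94 ± 0.21, adjusted p = 0.0888, edgeR), Tdrd12 (log2 -0.95 ± 0.23, adjusted p = 0.0945, edgeR), Mael (log2 1.02 ± 0.25, adjusted p = 0.0987, edgeR) and Stag3 (log2 0.71 ± 0.17, adjusted p = 0.105, edgeR). For each of these 4 genes the QT7L1 and WT libraries did not overlap. With 2 libraries a group this held also for genes of small difference, such as Syce2 (log2 0.19) and Sycp2 (log2 -0.20). The share of all genes without overlap was not counted. Tex19.1 had a log2 fold change of -0.01 ± 0.14 and Sycp1 of 0.07 ± 0.38 in QT7L1 over WT, with overlapping libraries. The edgeR count was 1 without WT replicate 2, with 0.628% of all genes called, and 3 without either QT7 library, with 2.95% to 3.06%.

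The lines with the 2 different factors were compared directly, and in QT7 against QT7L1 0 of the 34 genes passed by edgeR, against 0.00606% of all genes, 0% higher and 0.00606% lower. DESeq2 called 3 of the 34, with 1.41% of all genes called. Without QT7 replicate 2, whose group then rests on QT7 replicate 1, edgeR called 12 of these genes and 9.17% of all genes. The smallest adjusted p was that of Tex19.1, 1.61 times as high in QT7 as in QT7L1 (log2 0.69 ± 0.14, adjusted p = 0.160, edgeR). Stk31 had a log2 difference of 0.97 ± 0.27, Hormad2 of 0.79 ± 0.26, Sycp1 of 0.80 ± 0.37 and Syce1 of 0.39 ± 0.22 between QT7 and QT7L1, with adjusted p of 0.246, 0.314, 0.459 and 0.535 (edgeR). Syce2 was lower in both QT7 libraries than in both QT7L1 libraries, by a log2 difference of -0.40 ± 0.11 that did not pass (adjusted p = 0.245, edgeR). Hormad1 had a log2 difference of 1.97 ± 0.51, Tdrd1 of -1.25 ± 0.36, Tdrd9 of 1.22 ± 0.37 and Dazl of 1.71 ± 0.48 between QT7 and QT7L1, with adjusted p of 0.252, 0.270, 0.276 and 0.293 (edgeR).

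The QT7 clones were far apart in a few genes, which are named here after their values were seen. Asz1, which tethers piRNA granules to mitochondria, had 252 counts in QT7 replicate 1 and 5 in QT7 replicate 2, against 1 and 3 in QT7L1, 5 and 2 in QKO, and 0 and 4 in WT. That is 6.43 CPM in replicate 1 and 0.115 in replicate 2 of QT7, so 1 clone held nearly all the counts of this gene. Asz1 did not pass the filter, which needs expression in 2 libraries, and has no test here. Slc25a31 stood at 5.997 and 1.33 CPM in QT7, 1.21 and 1.64 in QT7L1, 3.91 and 3.80 in QKO, and 0.939 and 1.18 in WT. Hormad1 stood at 22.2 and 6.30 CPM in QT7, 3.79 and 3.50 in QT7L1, 7.66 and 7.57 in QKO, and 3.44 and 4.35 in WT. In both genes QT7 replicate 1 was the highest library and the QKO libraries came next. Mael, by contrast, differed by 1.00 times between the QT7 clones, Sycp3 by 1.01 times and Tex19.1 by 1.02 times.

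**Figure D4:**
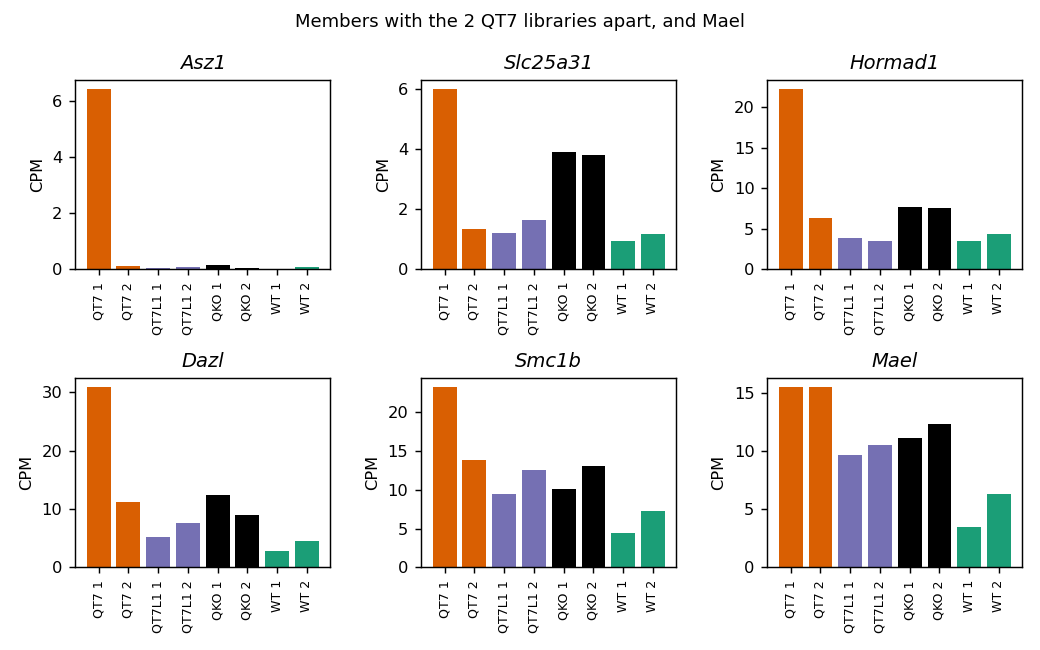
Level in CPM of Asz1, Slc25a31, Hormad1, Dazl, Smc1b and Mael in each of the 8 libraries, 1 bar per library from 0, for genes chosen after their values were seen. QT7 replicate 1 is at 6.43 CPM for Asz1, 5.997 for Slc25a31 and 30.9 for Dazl, while Mael is at 15.5 in both QT7 libraries.

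Genes of the same processes outside the 37 were counted from lists drawn up with earlier results of these data known. Of 26 tested meiosis genes, 4 rose and 3 fell in QKO against WT (median log2 -0.11), 4 rose and 1 fell in QT7 against QKO, and 6 rose and 1 fell in QT7L1 against QKO. These calls made 26.9%, 19.23% and 26.9% of the 26, against 26.4%, 26.9% and 29.7% of all genes, so the list stood near or below the background in these 3 comparisons. In QT7 against WT 3 of the 26 rose and 0 fell. That is 11.5% called, against 4.62% of all genes, and all were higher, against 2.37%. Meiob, which binds single-stranded DNA in recombination, had 1 and 19 counts in QT7, 24 and 26 in QT7L1, 1 and 0 in QKO, and 31 and 37 in WT, and fell in QKO against WT (adjusted p = 0.00897, edgeR). Majin, which tethers meiotic telomeres to the nuclear envelope, had a log2 fold change of 1.61 ± 0.37 in QKO over WT (adjusted p = 0.0119, edgeR). Mlh3, a crossover enzyme, and Trip13, which removes HORMA proteins from chromosome axes, each had a log2 fold change of 0.48 in QKO over WT (adjusted p = 0.0128 and 0.0174, edgeR). Of 18 tested piRNA pathway genes outside the 37, 4 rose and 1 fell in QKO against WT (median log2 0.31), which is 27.8% of them, against 26.4% of all genes. In QT7 against WT 3 of the 18 rose and 1 fell, 22.2% against 4.62% of all genes. The shares called were 38.9% in QT7 and 33.3% in QT7L1 against QKO, against 26.9% and 29.7% of all genes. Morc1, a germ cell protein of transposon silencing, stood at 207 and 125 CPM in QT7, 86.5 and 81.3 in QT7L1, 163 and 167 in QKO, and 56.8 and 45.9 in WT. Its log2 fold change was 1.69 ± 0.21 in QKO over WT (adjusted p = 0.00175, edgeR) and 1.70 ± 0.21 in QT7 over WT (adjusted p = 0.00729, edgeR). Henmt1, the methyltransferase of piRNA ends, had 2 and 12 counts in QT7, 1 and 5 in QT7L1, 42 and 46 in QKO, and 14 and 9 in WT, with an adjusted p of 0.0374 in QKO against WT (edgeR).

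Of 25 genes of PRC1.6 and other repressors of germline genes, 10 rose and 2 fell in QKO against WT (median log2 0.27), and 1 rose and 12 fell both in QT7 against QKO (median log2 -0.40, against 0.05 over all genes) and in QT7L1 against QKO (median log2 -0.35, against 0.02 over all genes). The 10 that rose in QKO made 40% of the list, against 11.7% of all genes, and the 2 that fell 8%, against 14.7%. The 12 that fell in each line relative to QKO made 48% of the list, against 12.1% of all genes in QT7 and 13.9% in QT7L1. Trim28, a corepressor, was at 3334 and 3338 CPM in QKO and at 2015 and 1746 in WT (log2 0.83 ± 0.11, adjusted p = 0.00121, edgeR). Hdac1, a histone deacetylase, had a log2 fold change of 0.53 ± 0.11 and Wdr5, a scaffold of several chromatin complexes, of 0.56 ± 0.09 (adjusted p = 0.00821 and 0.00288, edgeR). Yaf2, a subunit of Polycomb complexes, fell, with a log2 fold change of -1.15 ± 0.22 (adjusted p = 0.00555, edgeR). Of 15 primordial germ cell specification genes, which include Nanos3 and Dnd1, 4 rose and 2 fell in QKO against WT, together 40% of the list, against 26.4% of all genes. Nanog and Lin28a were among those that rose, with log2 fold changes of 1.00 ± 0.10 and 0.57 ± 0.11 (adjusted p = 0.000615 and 0.00549, edgeR), and Dppa3, a maternal factor that guards DNA methylation, fell, with 22 and 41 counts in QKO against 494 and 516 in WT (adjusted p = 0.00636, edgeR).

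Markers of other cell types that such cultures could hold are given by their sums. Fibroblast markers, which feeder cells would bring, summed to 69.8 and 112.6 CPM in QT7, 63.3 and 80.4 in QT7L1, 205.5 and 69.3 in QKO, and 173.1 and 107.5 in WT, with Lum and Fap of 15 at 0 in every library. Primitive endoderm markers summed to 266 and 223 CPM in QT7, 129 and 151 in QT7L1, 140 and 181 in QKO, and 132 and 357 in WT, with none of 8 at 0 in every library. Their part in the results was not tested.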

How the data were processed

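RNA was sequenced in 8 libraries of mouse embryonic stem cells, 2 per group, grouped by sample title. Per the submitters' processing notes, bcl2fastq 1.8.4, STAR 2.4.0f1, HTSeq and DESeq2 (listed as version 2.1.8.3) were used with the mm10 (GRCm38) build. How HTSeq was set for strand and annotation, and its version, are not stated in these notes. Each library has a deposited file of integer counts per Ensembl gene, not normalised. The authors' deposited comparison tables hold log2 fold changes with standard errors and an adjusted p-value. They gave the gene symbols and were otherwise used only to count the members the authors called.

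The counts were tested with edgeR 4.0.16 in R 4.3.3. filterByExpr at its defaults kept 16515 of 47729 genes, TMM scaled the libraries, and 1 robust quasi-likelihood fit over all 8 libraries used group as its only term (4 residual degrees of freedom). Each of the 6 pairs of groups had a 2-sided F test per gene, with Benjamini-Hochberg adjustment over all genes tested and calls at an adjusted p under 0.05. The standard error (SE) is the size of the log2 fold change over the square root of F. The fit was tested on simulated data. Alternatives were DESeq2 1.42.0, its size factors, no filter, no robust estimation, only the compared groups, a replicate block and leaving out each library.

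Exon lengths came from GENCODE M21 and start regions from RefSeq on GRCm38.p6. The members, lists, tests and alternatives were chosen with earlier results of these data known. By rule, each member called in any comparison is given in every library, a comparison with more than 12 calls has its statistics printed for the 12 smallest adjusted p values, and up to 4 called genes may be named from other lists. The listed symbols Brme1, Papi1 and Dux were not matched. Libraries held 31573536 to 43362627 counts. At this depth 3 counts correspond to 0.0680 to 0.0939 CPM, which bounds what a count of 0 allows, for counting error only.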

Additional observations from a re-analysis of the deposited data

Results flagged for a closer look

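The libraries of Mael lay on opposite sides of QKO in the lines with a factor returned, without a passing test. Mael was picked from the 34 tested genes by this position. The share of all genes with such a position was not counted. It stood at 15.5 and 15.5 CPM in QT7, both above the QKO libraries at 11.2 and 12.4 CPM, while the QT7L1 libraries, at 9.66 and 10.5 CPM, were both below them. Tested directly, the log2 difference of QT7 from QT7L1 was 0.62 and did not pass (adjusted p = 0.396, edgeR). Neither line passed against QKO, with log2 fold changes of 0.40 ± 0.24 in QT7 and -0.22 ± 0.24 in QT7L1 (adjusted p = 0.246 and 0.522, edgeR).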

How the results depend on the processing

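No called gene changed direction under any of the 14 alternatives. The calls of Tex19.1, Syce1, Sycp3 and Hormad2 in QKO against WT, and of Tex19.1 and Sycp3 in QT7L1 against QKO, held under all of them, and every other call ended under at least 1. DESeq2 called 14 genes in QT7 against WT in place of 9, 5 in QT7L1 against WT in place of 0 and 3 in QT7 against QT7L1 in place of 0, with 7.9%, 4% and 1.41% of all genes called. Without the filter on low counts there were 16 in QT7 against QKO, 16 in QT7L1 against QKO, 17 in QT7 against WT, 7 in QT7L1 against WT and 9 in QT7 against QT7L1, in place of 9, 10, 9, 0 and 0, with 20.7%, 22.2%, 8.5%, 4.82% and 3.98% of all genes called. Fitting only the 2 groups compared gave 3 in QT7 against QKO, 16 in QT7L1 against QKO, 0 in QT7 against WT and 3 in QT7L1 against WT. The shares of all genes called in these 4 fits were 19.9%, 39.8%, 0.718% and 3.93%. Leaving out 1 library gave 6 to 20 calls in QKO against WT, 0 to 12 in QT7 against QKO, 3 to 15 in QT7L1 against QKO, 0 to 16 in QT7 against WT, 0 to 3 in QT7L1 against WT and 0 to 12 in QT7 against QT7L1. A group left with 1 library was assumed to vary like the others. With the replicate block the counts were 14, 8, 10, 8, 0 and 0 in the same order. The shares of all genes called were then 26.1%, 26.6%, 29.4%, 4.85%, 1.02% and 0.0121%. With this block Tdrd7 in QT7 against QKO (adjusted p = 0.0557, edgeR), Syce2 in QT7L1 against QKO (0.0638) and Dazl in QT7 against WT (0.0819) lost their calls. The labels do not say whether the replicate number pairs the samples, and the main fit used no pairing. Deviations of same-numbered libraries correlated at -0.21 to 0.16, which with 2 libraries a group cannot settle whether samples were paired. The cause of these changes was not tested. With 2 libraries a group, a gene that did not pass is not shown to be equal between groups.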

Other observations

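Some values of the same processes stand outside the comparisons above. Rec114, which helps to form meiotic DNA breaks and is no member of the 37, had 787 and 235 counts in QT7, 54 and 65 in QT7L1, 89 and 102 in QKO, and 56 and 114 in WT, so QT7 replicate 1 was highest here too. Zp3 stood at 3.70 and 3.59 CPM in QT7, 2.79 and 1.55 in QT7L1, 10.3 and 11.4 in QKO, and 2.97 and 2.81 in WT, and rose in QKO against WT (log2 1.91 ± 0.27, adjusted p = 0.00170, edgeR). Of the 10 markers of postnatal germ cells only 2 were tested, and the other had a log2 fold change below 0 and did not pass. In the authors' deposited tables, members with an adjusted p under 0.05 numbered 10 in QT7 against QKO, 10 in QT7L1 against QKO, 13 in QT7 against WT, 4 in QT7L1 against WT and 2 in QT7 against QT7L1. Of the calls made here, 7 of 9, 7 of 10 and 9 of 9 were among them in the first 3 of these pairs. The share of all genes with such a value in the authors' tables was not counted.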
